A study of Rattus norvegicus with 4 samples.

Results

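The regions described here are peaks of CD44 ChIP-seq signal that lie on unplaced scaffolds, stretches of the rat assembly Rnor_6.0 that carry an accession-like name of their own in place of a chromosome name. Members were all peaks of the deposited lists whose sequence name was not 1 to 20, X, Y or MT. The serum list held 1586 such peaks among 289279 (0.548%, exact 95% binomial interval 0.522 to 0.576%), on 183 scaffolds. The starved list held 5666 among 409937 (1.38%, interval 1.35 to 1.42%), on 318 scaffolds. Over both lists 351 scaffolds carried a peak, of which 302 have names that start with KL and 49 have names that start with AABR. The lists do not say whether a scaffold belongs to a known chromosome, so "unplaced" follows from the names alone.

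The cells came from the rat nucleus pulposus, which is the soft core of the intervertebral disc, and were grown with 10% fetal bovine serum (the serum group) or with 0.1% (the serum-starved group). The sources used here do not state genotype, strain, sex, age or time under starvation, and peak lists hold no expression values against which the cell type could be checked. Each condition had 1 library precipitated with an antibody against CD44 and 1 input library of unprecipitated DNA, with 1 peak list for the condition. Every difference between the lists below therefore describes a pair of libraries, has no replicate check and carries no p-value.

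CD44 is a receptor at the cell surface that binds hyaluronan, a main component of the disc matrix, and its intracellular part can be cut free and reach the nucleus. An unplaced scaffold is sequence that was assembled but could not be ordered along a chromosome, which is frequent for repeats and duplicated segments. Reads from such sequence can fit several places equally well, and aligners differ in where they put them. How such reads and duplicate reads were treated here is not stated in the sources at hand.

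The terms used for a peak are those of the lists. Pileup is the authors' height of a peak at its highest point, and fold enrichment is their ratio of that height to a local background, with 1 added to both. The local background was recovered from these values for each peak and is given as a multiple of the lowest background of the same list. It was called raised above 2 times the lowest, low otherwise, and at the lowest within 1% of it. A peak was called strong at a −log10 q of at least 5, and shared when it overlapped a peak of the other list by at least 1 bp. The span of a scaffold is the last peak end on it in either list, which is a lower bound on its length. The lists differ in scale: the lowest background was 1.50 for serum and 0.0996 for starved peaks, 15.1 times apart, and the lowest pileup was 4 against 1. Read depth, scaling by the authors and the treatment of duplicate reads cannot be told apart in this difference. Levels of pileup are therefore compared within a list only. The intervals given cover counting error alone and take peaks as independent, which neighbours are not.

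Most scaffold peaks lay on a few long scaffolds. The 10 scaffolds with the most peaks over both lists held 1027 serum peaks, or 64.8% of those on scaffolds, and 3805 starved peaks, or 67.2%. All 10 are KL scaffolds with a span above 1 Mb. At the other end, 141 scaffolds carried 1 peak over both lists. KL scaffolds held 1495 serum and 5467 starved peaks, and AABR scaffolds held 91 and 199.

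More scaffolds carried starved than serum peaks, in lists of unequal length. Starved peaks outnumbered serum peaks on 268 scaffolds, serum peaks outnumbered starved peaks on 49, and the numbers were equal on 34. Both lists had peaks on 150 scaffolds, the serum list alone on 33 and the starved list alone on 168. The 33 scaffolds of the serum list alone held 42 peaks, 2.65% of its scaffold peaks, with a median pileup of 7. The 168 of the starved list alone held 279 peaks, 4.92% of its scaffold peaks, with a median pileup of 2. Scaffolds seen in 1 list thus held few of the peaks of that list.

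No scaffold with 5 or more serum peaks lacked starved peaks. The scaffold with the most serum peaks and no starved peak was KL567901.1, with 3, the tallest at a pileup of 11. In the other direction KL568154.1 had 13 starved peaks and no serum peak, with a highest pileup of 4. KL568144.1 had 10, up to a pileup of 3, and AABR07024120.1 had 6, up to 7. KL568145.1 also had 6, up to 8, and AABR07024102.1 had 5, up to 8. These 5 scaffolds held 4 strong starved peaks in all, 2 of them on KL568145.1.

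**Figure D1:**
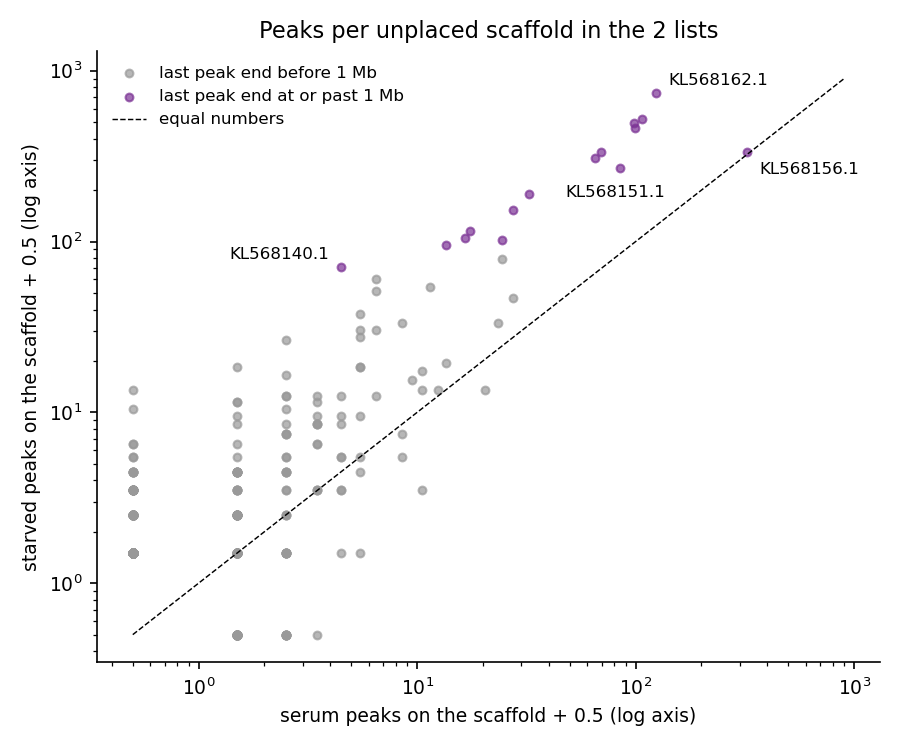
Each point is 1 of the 351 scaffolds, placed by its number of serum peaks (horizontal) and of starved peaks (vertical), each with 0.5 added so that 0 can be shown on log axes. Scaffolds with a span of at least 1 Mb (purple) lie above the dashed line of equal numbers, KL568156.1 (324 and 336) only just; KL568140.1 (4 and 70) lies farthest from it among them.

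The 15 scaffolds with a span of at least 1 Mb covered 63.1 of the 79.0 Mb spanned by all scaffolds, and their peak densities can be set beside those of the chromosomes. In the serum list their density ran from 3.17 to 148 peaks per Mb, with a median of 12.8. The lowest value, on KL568140.1, rests on 4 serum peaks (interval 0.863 to 8.11). Chromosomes 1 to 20 and X ran from 43.0 to 179, with a median of 107. The 14 scaffolds other than KL568156.1 all lay below the sparsest of these chromosomes. In the starved list the scaffolds ran from 53.3 to 154 peaks per Mb, with a median of 67.9, and the chromosomes from 135 to 155, with a median of 144. The Y chromosome, a further sequence in the lists, had 26.6 serum and 132 starved peaks per Mb. Long scaffolds were thus sparse in peaks in both lists, with KL568156.1 as the exception in each.

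**Figure D2:**
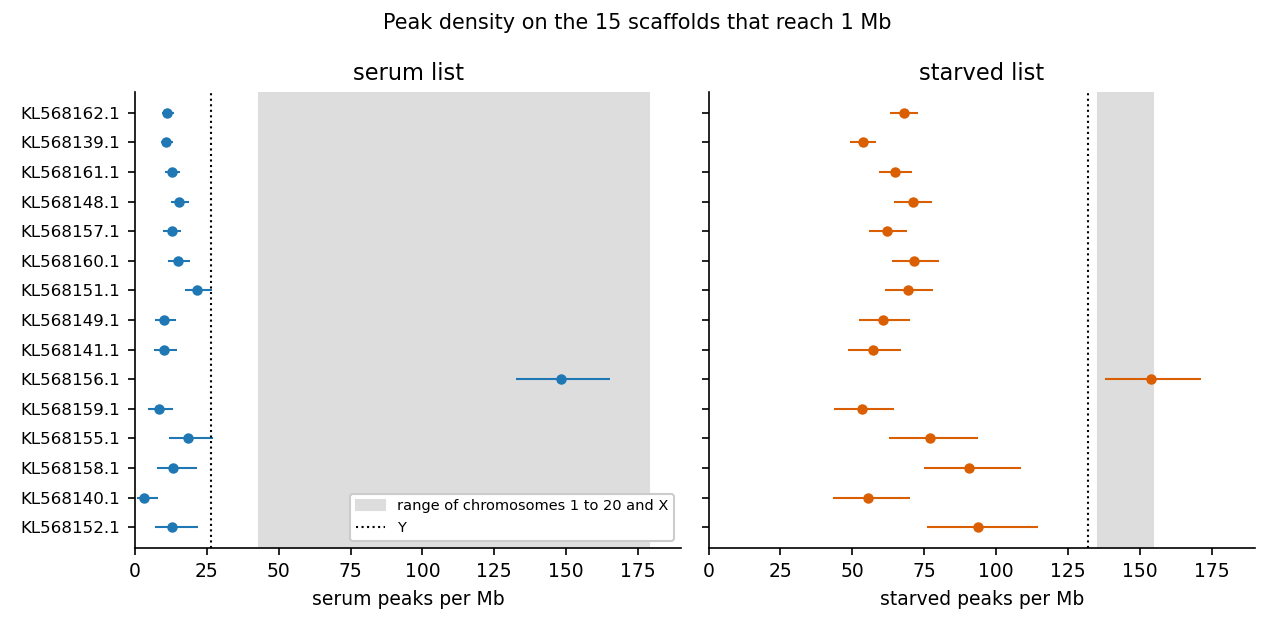
Peaks per Mb of span on the 15 scaffolds that reach 1 Mb, in the serum list (left) and the starved list (right), ordered by span with the longest at the top. Points are densities, bars are exact 95% Poisson intervals, the grey band is the range over chromosomes 1 to 20 and X (43.0 to 179 and 135 to 155), and the dotted line is Y (26.6 and 132). KL568156.1 lies in the grey band of both lists, and the other scaffolds lie left of it.

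The scaffolds with the most peaks fell into a common pattern and 2 exceptions, which were noticed in these values and were not defined beforehand. KL568162.1, with a span of 10.9 Mb, had 123 serum peaks at a median pileup of 16 and 741 starved peaks at a median pileup of 2. Of its serum peaks 116 (94.3%) were shared, and their median background was 2.90 times the lowest. KL568139.1 (span 9.74 Mb) had 106 serum and 522 starved peaks, with 92.5% of the serum peaks shared at a median background of 2.76 times the lowest. Both scaffolds combined few serum peaks per Mb with a raised background under most of them.

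KL568161.1 (7.57 Mb) had 98 serum and 491 starved peaks, and its serum peaks had a median pileup of 17.5 and were shared in 93.9%. KL568148.1 (6.47 Mb) had 99 and 459, with 85.9% of the serum peaks shared. KL568160.1 (4.32 Mb) had 65 and 309, with 86.2% shared. On these scaffolds, too, most serum peaks had a counterpart. KL568157.1 (5.41 Mb), with 69 and 336 peaks, was lower at 65.2%. On KL568149.1 (3.13 Mb) all 32 serum peaks were shared, and on KL568141.1 (2.66 Mb) all 27. Those scaffolds had 190 and 152 starved peaks. On the scaffolds named so far in this pattern, 13.4 to 18.1% of the starved peaks were shared. Over the whole lists 15.7% of serum and 11.0% of starved peaks were shared.

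The exceptions were KL568156.1 and KL568151.1, both with a median serum background at 1.00 times the lowest and a median serum pileup of 7, the median of chromosomes 1 to 20 and X. KL568156.1 (2.18 Mb) had 324 serum and 336 starved peaks, 1.04 starved peaks for each serum peak, and 27.8% of its serum peaks were shared. KL568151.1 (3.88 Mb) had 84 and 269, and 47.6% of its serum peaks were shared. On the other 13 scaffolds of at least 1 Mb the median serum pileup was 9 to 20 and the median serum background 1.75 to 3.63 times the lowest. From 65.2 to 100% of serum peaks were shared on them, and starved peaks were 4.21 to 17.5 times as many as serum peaks. The ends at 9, 1.75 and 17.5 came from KL568140.1, which had 4 serum peaks, and the next highest ratio was 7.31. Y had values within most of these ranges: 87 serum peaks with a median pileup of 14, a median background of 2.90 times the lowest and 94.3% shared (82 peaks), beside 432 starved peaks. Its serum and its starved peaks per Mb were above those of all 13.

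The background under serum peaks was raised on scaffolds more often than on chromosomes 1 to 20 and X, and less often than on Y. It was raised for 639 serum scaffold peaks, 40.3% (interval 37.9 to 42.8%), against 8.96% on chromosomes 1 to 20 and X. For starved peaks it was raised for 1847, 32.6% (31.4 to 33.8%), against 24.8%. On Y it was raised for 74.7% of serum and 40.7% of starved peaks. The share was lower on shorter scaffolds in both lists. For serum peaks it was 50.6% on scaffolds of at least 1 Mb, 24.2% on those of 100 kb to 1 Mb and 10.7% on those under 100 kb. For starved peaks it was 36.2, 25.8 and 15.7%, so scaffolds under 100 kb lay below the chromosomes there. At the same time 34.3% of starved scaffold peaks were at the lowest background, against 16.8% on chromosomes. The starved peaks of scaffolds were therefore spread to both ends of the background scale.

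At the median, serum peaks of all scaffolds together were taller than those of chromosomes where the background was raised and not elsewhere. Their pileup had a median of 9 (quartiles 7 and 16, highest 262), against 7 (6 and 8, highest 251) on chromosomes 1 to 20 and X. Among peaks with a low background both medians were 7, and among those with a raised one they were 18 and 12. With 1 median per scaffold the median over scaffolds was also 7. By span, the medians with a raised background were 19 from 1 Mb, 14 from 100 kb to 1 Mb and 11.5 under 100 kb. The raised backgrounds themselves had medians of 3.62 times the lowest on scaffolds and 2.76 on chromosomes. Starved scaffold peaks had a median pileup of 2 (quartiles 1 and 3, highest 61), the same median and quartiles as on chromosomes, where the highest was 159. A pileup of 1 was listed for 2592 starved scaffold peaks, 45.7%, against 40.8% on chromosomes.

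Lengths differed little at the median and more among long peaks. The median length was 359 bp (quartiles 288 and 507, longest 2430) for serum scaffold peaks and 350 bp on chromosomes 1 to 20 and X. It was 236 bp (217 and 447, longest 5377) for starved scaffold peaks and 232 bp on chromosomes. Peaks of at least 1 kb made up 3.22% (51 peaks) of serum and 7.34% (416 peaks) of starved scaffold peaks, against 1.09 and 1.74% on chromosomes. Of these long starved peaks 359 had a raised background. Among strong starved peaks the median was 685 bp on scaffolds and 345 bp on chromosomes, and among strong serum peaks 467 and 471 bp. The shares of at least 1 kb differed by span in both lists. Serum peaks of that length made up 4.27% on scaffolds of at least 1 Mb. From 100 kb to 1 Mb they made up 1.35% (3 of 223, interval 0.278 to 3.88%). Under 100 kb they made up 0.382% (1 of 262, interval 0.00966 to 2.11%). The last 2 intervals include the serum share on chromosomes. Starved peaks of at least 1 kb made up 8.81% on scaffolds of at least 1 Mb and 4.35% on those of 100 kb to 1 Mb. Under 100 kb they made up 0.810%, with an interval of 0.264 to 1.88% that includes the share on chromosomes. The medians of strong starved peaks were 821, 459 and 337 bp in that order. In the starved list Y had 9.95% and 1010.5 bp, and 6.90% of its serum peaks (6 of 87) had at least 1 kb. The longest starved scaffold peak was at KL568161.1:2267507-2272883, with a pileup of 18 and a serum partner of 573 bp.

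Strong peaks made up a larger share of scaffold peaks than of all peaks in the serum list, and about the same share in the starved list. In the serum list 175 scaffold peaks were strong, 11.0% (interval 9.53 to 12.7%), where 1.22% of all its peaks were. Scaffolds thus held 4.94% of its strong peaks, against 0.548% of all peaks. In the starved list 713 were strong, 12.6% (11.7 to 13.5%), where 13.0% of all its peaks were. On Y the strong shares were 18.4% of serum peaks (16 of 87) and 10.6% of starved peaks. At a q of at most 0.05 the counts were 683 serum peaks (43.1%, where 19.9% of all passed) and 2637 starved peaks (46.5%, where 52.0% passed). Of the strong serum scaffold peaks 144 had a raised background, and 161 lay on scaffolds of at least 1 Mb. With a low background, 3.27% of serum scaffold peaks were strong against 0.329% on chromosomes, and 6.44% of starved ones against 12.8%. With a raised background, 22.5% of serum scaffold peaks were strong against 9.66%, and 25.3% of starved ones against 13.6%. From the longest scaffolds to the shortest, these shares were 24.2, 7.41 (4 of 54) and 17.9% (5 of 28) for serum peaks. For starved peaks they were 27.3, 13.8 and 16.5%. The intervals below 1 Mb all include the chromosome value. With a low background the starved shares were 5.23, 7.46 and 11.7% (last interval 9.09 to 14.8%). The order in the starved list thus differed between low and raised backgrounds, beyond counting error only from 1 Mb.

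Serum scaffold peaks were shared with the starved list more often than serum peaks as a whole. Of the 1586, 883 overlapped a starved peak, 55.7% (interval 53.2 to 58.1%), where 15.7% of all serum peaks did and 15.5% of those on chromosomes 1 to 20 and X. The share was 68.1% (750 of 1101) on scaffolds of at least 1 Mb, 38.6% (86 of 223) on those of 100 kb to 1 Mb and 17.9% (47 of 262, interval 13.5 to 23.1%) on those under 100 kb. It was 57.9% on KL and 19.8% (18 of 91, interval 12.2 to 29.4%) on AABR scaffolds. The interval of the AABR scaffolds and that of the shortest scaffolds include the share of all serum peaks.

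Over all scaffolds the share was higher than on chromosomes both with a raised and with a low background. With a raised background 91.5% of serum scaffold peaks were shared, against 58.0% on chromosomes, at median backgrounds of 3.62 and 2.76 times the lowest. On scaffolds under 100 kb it was 35.7% with a raised background (10 of 28, interval 18.6 to 55.9%), below the chromosomes. With a low background, 31.5% (298 of 947) were shared, against 11.3%. Among serum peaks of any background, an overlap of at least 50% of both peaks gave shares of 20.2% on scaffolds and 5.70% on chromosomes. Among strong serum peaks 165 of 175 scaffold peaks were shared, 94.3%, where 90.3% of all strong serum peaks were. With a low background that share was 96.8% (30 of 31, interval 83.3 to 99.9%) on scaffolds and 75.1% on chromosomes. When both partners had to be strong, at any background, the shares were 73.7 and 72.9%, so scaffolds and chromosomes then stood close together.

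For starved peaks the direction depended on the background. Of the 5666 scaffold peaks 821 overlapped a serum peak, 14.5% (13.6 to 15.4%), where 11.0% of all starved peaks did and 10.9% on chromosomes 1 to 20 and X. With a raised background 30.4% were shared against 17.3% on chromosomes. With a low background the order turned, with 6.81% on scaffolds against 8.86%. By span the share was 16.1% from 1 Mb, 11.1% (8.92 to 13.5%) from 100 kb to 1 Mb and 7.78% (5.79 to 10.2%) under 100 kb, where it was below that of chromosomes. On AABR scaffolds it was 9.05% (18 of 199), with an interval of 5.45 to 13.9% that includes the share on chromosomes. Within 500 bp in place of an overlap, the starved shares were 21.7% on scaffolds and 20.9% on chromosomes. Among strong starved peaks 372 of 713 were shared, 52.2% (48.4 to 55.9%), where 21.6% of all strong starved peaks were. By span it was 59.4% from 1 Mb, 34.8% (24 of 69) from 100 kb to 1 Mb and 14.3% (11 of 77, interval 7.35 to 24.1%) under 100 kb. On AABR scaffolds it was 18.2% (4 of 22, interval 5.19 to 40.3%). The last 2 intervals include the share of all strong starved peaks. With a low background 24.0% of strong starved peaks were shared on scaffolds and 12.5% on chromosomes. On scaffolds under 100 kb it was 11.5% (7 of 61). The part of local background and of peak length in these overlaps was not tested.

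**Figure D3:**
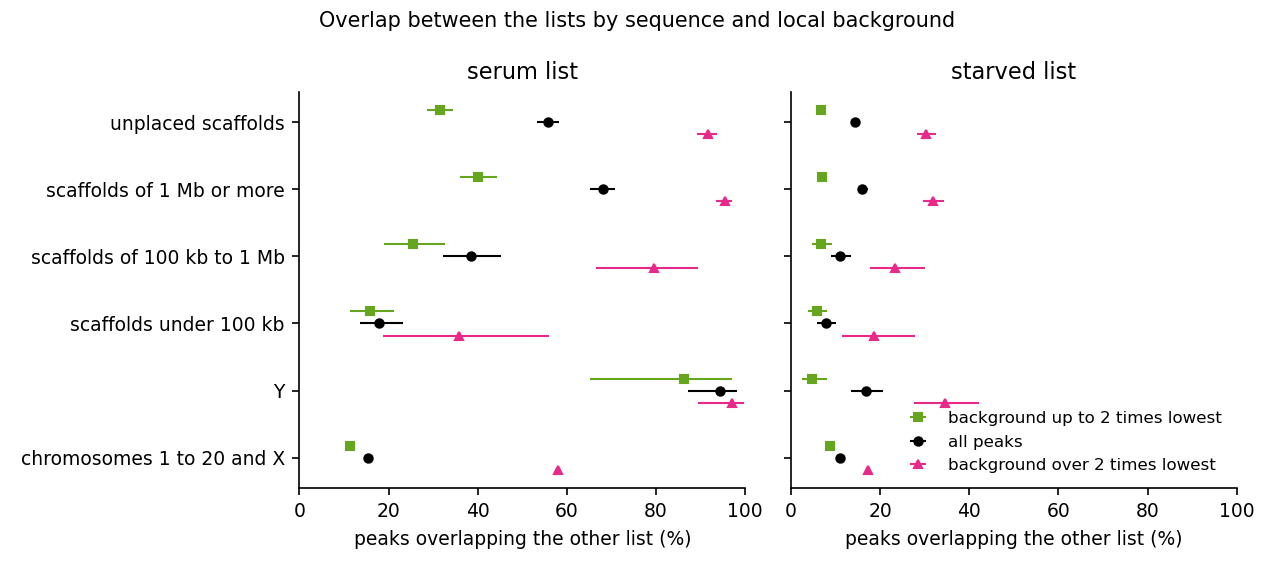
Percentage of peaks that overlap a peak of the other list by at least 1 bp, for the serum list (left) and the starved list (right), on all unplaced scaffolds, on scaffolds by span, on Y and on chromosomes 1 to 20 and X. Black circles are all peaks (55.7 and 14.5% on unplaced scaffolds), green squares those with a low background (31.5 and 6.81%), pink triangles those with a raised one (91.5 and 30.4%), and bars are exact 95% binomial intervals.

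Among overlapping peaks, those tall in one list tended to be tall in the other. The 883 serum peaks had 783 different best partners on 70 scaffolds. The median overlap was 317 bp, a median of 97.4% of the serum peak was covered, and the median distance between centres was 179 bp, values that the choice of overlapping peaks limits. Both backgrounds were raised in 535 pairs (60.6%) and neither in 202 (22.9%). The median pileup of the serum peaks was 14 and that of their partners 6. Across pairs Spearman's rho was 0.686 for the pileups and 0.765 for the backgrounds, as a description of points that share a scaffold and, for some, a partner. Among the 298 pairs with a low serum background, rho of the pileups was 0.408, and among the other 585 it was 0.564.

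**Figure D4:**
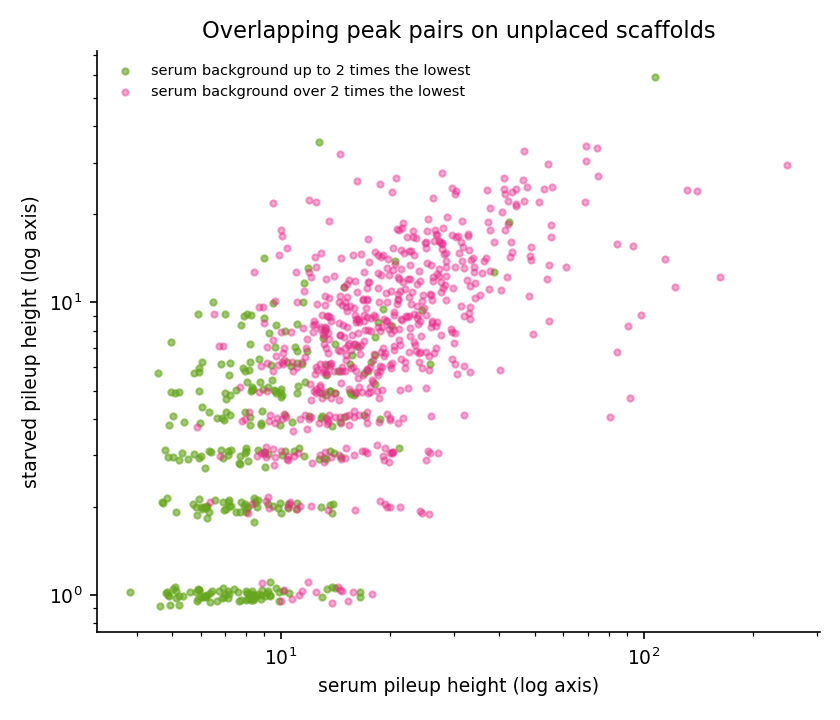
Each point is 1 of the 883 serum scaffold peaks with its best starved partner, placed by serum pileup (horizontal) and starved pileup (vertical) on log axes, with a small random shift so that equal whole numbers do not hide each other. Pairs with a serum background above 2 times the lowest (pink, median pileups 18 and 8) lie to the upper right of the others (green, median pileups 8 and 3); the green point at 98 and 61 is on KL568237.1.

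The tallest serum peaks came from 1 stretch of KL568156.1. In 30.8 kb, at KL568156.1:572950-603750, the serum list had 21 peaks with pileups from 31 to 262 (median 100), and 9 of the 10 tallest serum scaffold peaks were among them. The background there was 7.74 to 79.6 times the lowest, and fold enrichments were therefore modest, at 1.58 to 3.84. The starved list had 19 peaks in the same stretch with pileups from 3 to 31 (median 8), a background of 6.66 to 60.0 times the lowest and fold enrichments of 2.17 to 6.48. The serum values restate how the stretch was chosen, by serum height and background, whereas the starved values had no part in that choice.

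The tallest serum peak of all scaffolds, at KL568156.1:592780-593746, had a pileup of 262 and a fold enrichment of 2.18. Its starved partner at 592871 to 593565 had a pileup of 31 and a fold enrichment of 4.59, and was the tallest starved peak of the stretch. The next serum peak, at 596693 to 597371 with a pileup of 196, had no starved partner. Of the 21 serum and of the 19 starved peaks 13 each were shared, where 15.7% of all serum and 11.0% of all starved peaks were. In the stretch 17 serum and 6 starved peaks were strong, where 1.22% of all serum and 13.0% of all starved peaks were. The remaining 303 serum peaks of the scaffold had a median pileup of 7, with 207 at the lowest background, 25.4% shared and 4 strong. The remaining 317 starved peaks had a median of 2, with 190 at the lowest background, 23.3% shared and 42 strong. Outside the stretch KL568156.1 thus had many low peaks, most of them at the lowest background in both lists. It also had 42 of its 48 strong starved peaks there.

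**Figure D5:**
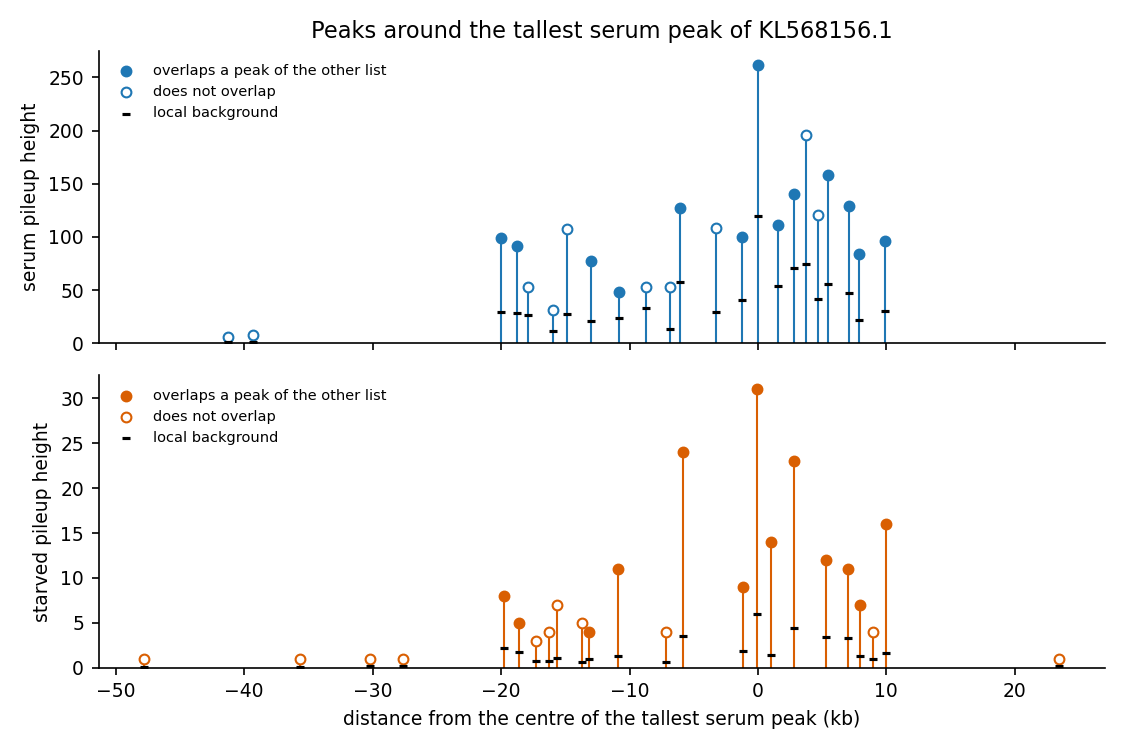
Pileup of serum peaks (top) and starved peaks (bottom) of KL568156.1 against distance in kb from the centre of the tallest serum peak, with different vertical scales. Filled points overlap a peak of the other list, open points do not, and black dashes give the local background of each peak. The tall peaks of both lists, up to 262 and 31, fill the same 30.8 kb, and peaks beyond it are low.

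The tallest starved peaks stood elsewhere, and 4 of the first 10 were the only starved peak of their scaffold. The highest was at KL568237.1:3094-3583, with a pileup of 61 and a fold enrichment of 56.4. Its serum partner at 3223 to 4014 had a pileup of 98 and a fold enrichment of 39.6. Both lay at the lowest background of their list, so this is the one position among the 10 tallest of either list that was high over a lowest background in both libraries.

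Of the other tall starved peaks 3 had no partner. KL568513.1:3236-4240 had a pileup of 41 and a fold enrichment of 38.2, and the only serum peak of that scaffold, elsewhere on it, had a pileup of 6. KL568266.1:328-649 had a pileup of 35 and a fold enrichment of 32.7, and KL568292.1:1103-1505 a pileup of 31 and a fold enrichment of 25.7. Neither of these scaffolds had a serum peak. KL568245.1:1-436 had a pileup of 36 and overlapped a serum peak with a pileup of 13.

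The remaining 5 had partners that were tall over a raised background. KL568139.1:516607-517135 had a pileup of 35, with 66 in the serum list. KL568150.1:501334-503199 had 34, with 71. On KL568161.1 the peaks at 257300 to 258133 and at 336494 to 338330 both had 32, with 46 and 67. KL568162.1:344411-344719 had 32, with 55. Starved fold enrichments of these 5 were 16.4 to 23.2 and serum ones 2.52 to 7.86, over serum backgrounds of 5.07 to 14.8 times the lowest.

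Of the 175 strong serum scaffold peaks 165 (94.3%) had a starved partner, where 90.3% of all strong serum peaks did. Of the 10 without a partner, 5 were in the stretch of KL568156.1. The tallest outside it was at AABR07022335.1:1-627, with a pileup of 108 and a fold enrichment of 4.68. The next was at KL568304.1:6079-7113, with a pileup of 96 and a fold enrichment of 4.98. Each was the only peak of its scaffold in either list, over a background 14.8 and 12.3 times the lowest.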

How the data were processed

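Per the submitters' processing notes, the build was Rnor_6.0 and the tools were FastQC, STAR 2.5.3a and MACS2 2.1.1. Their options, the scaling and the treatment of duplicate or multiply placed reads were not given in the sources used here. Deposited lists give, per the file headers, each peak's position (1-based), length, fold enrichment (a ratio), p-value and q-value (FDR), and pileup signal, all as the authors computed them. Each list was placed with its library through the prefix of its peak names. The members and the rules for naming scaffolds and peaks were chosen with earlier results of these data known.

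The local background was computed as (pileup + 1) / fold enrichment − 1. For 100% of scaffold peaks in both lists, the Poisson probability it implies lay within 0.05 (log10) of the p-value the authors deposited. Named were the 10 scaffolds with the most peaks, the 10 tallest scaffold peaks per list with their partners, scaffolds with at least 5 serum and no starved peaks, and the 5 with the most starved and no serum peaks (ties by fold enrichment). The other strong serum peaks, the longest peak and the stretch of KL568156.1 were picked after their values were seen. The stretch runs over serum peaks with a background above 5 times the lowest within 50 kb of the tallest. The overlap search and the background formula were tested on simulated peaks. Shares have exact (Clopper-Pearson) 95% binomial and densities exact 95% Poisson intervals. Read totals, sequences and gene annotation of the build were not used here. Scripts ran pandas 2.3.3, scipy 1.17.1, numpy 2.4.6 and matplotlib 3.10.9 under Python 3.11.15.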

Additional observations from a re-analysis of the deposited data

How the results depend on the processing

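With 1 immunoprecipitated library per condition no replicate could be left out, pileups of the starved list start at 1, which leaves few steps between its low peaks, and a difference from the main value was counted where it lay outside that value's 95% interval or, for numbers of scaffolds, beyond 1.5 times. No paired analysis was possible because there was 1 CD44 library in each condition. Of 116 alternatives over 15 results, 30 stayed within that range and 86 did not. Alternatives by local background, by a span of 1 Mb and without KL568156.1 were added after the data were seen. The share of peaks that lie on scaffolds in % was 0.548 in the serum list, and 4.94 for strong peaks, 1.19 at a q of at most 0.05, 0.506 without KL568162.1, 0.437 without KL568156.1. It was 1.38 in the starved list, and 1.34 for strong peaks, 1.24 at a q of at most 0.05, 1.20 without KL568162.1, 1.30 without KL568156.1, 1.56 with as many peaks as the serum list, by smallest p. The shared share of scaffold peaks in % was 55.7 in the serum list, and 52.4 without KL568162.1, 19.8 on AABR scaffolds, 31.5 at a low background, 68.1 from 1 Mb of span, 27.4 under 1 Mb, 62.8 without KL568156.1, 20.2 with an overlap of 50% of both peaks (chromosomes 5.70), 63.2 within 500 bp (27.0), 73.7 between strong peaks (72.9), 68.4 between peaks at a q of at most 0.05 (21.8). It was 14.5 in the starved list, and 9.05 on AABR scaffolds, 6.81 at a low background (up to 2 times the lowest), 16.1 from 1 Mb of span, 9.59 under 1 Mb, 5.65 with an overlap of 50% of both peaks (chromosomes 4.06), 21.7 within 500 bp (20.9), 17.5 between strong peaks (4.58), 16.5 between peaks at a q of at most 0.05 (5.72). The median pileup was 9 in the serum list (chromosomes 7), and 31 for strong peaks (28), 16 at a q of at most 0.05 (9), 6 on AABR scaffolds, 7 at a low background (7), 11 from 1 Mb of span, 7 under 1 Mb, 10 without KL568156.1, 7 with 1 value per scaffold. It was 2 in the starved list (chromosomes 2), and 8 for strong peaks (7), 4 at a q of at most 0.05 (3), 1 at a low background (2). The median length in bp was 359 in the serum list, and 467 for strong peaks, 412 at a q of at most 0.05, 319 on AABR scaffolds, 335 at a low background, 372 from 1 Mb of span, 326 under 1 Mb, 336 with 1 value per scaffold. It was 236 in the starved list, and 685 for strong peaks, 394 at a q of at most 0.05, 229 on AABR scaffolds, 217 at a low background, 245 from 1 Mb of span, 224 under 1 Mb, 224.5 with 1 value per scaffold. The share with a raised background in % was 40.3 in the serum list (chromosomes 8.96), and 82.3 for strong peaks (74.3), 58.7 at a q of at most 0.05 (16.0), 37.0 without KL568162.1, 7.69 on AABR scaffolds, 50.6 from 1 Mb of span, 16.9 under 1 Mb, 46.6 without KL568156.1, 11.4 above 5 times the lowest (1.52). It was 32.6 in the starved list (chromosomes 24.8), and 65.5 for strong peaks (26.0), 41.4 at a q of at most 0.05 (19.7), 31.3 without KL568162.1, 12.1 on AABR scaffolds, 36.2 from 1 Mb of span, 21.3 under 1 Mb, 4.99 above 5 times the lowest (2.09). The share of strong peaks in % was 11.0 in the serum list, and 3.30 on AABR scaffolds, 3.27 at a low background, 14.6 from 1 Mb of span, 2.89 under 1 Mb, 4.35 at a −log10 q of at least 10, 43.1 at a q of at most 0.05. It was 12.6 in the starved list, and 11.1 on AABR scaffolds, 6.44 at a low background, 10.6 under 1 Mb, 3.87 at a −log10 q of at least 10, 46.5 at a q of at most 0.05. The number of scaffolds with peaks was 183 in the serum list, and 96 with at least 2 peaks, 25 for strong peaks, 76 at a q of at most 0.05. It was 318 in the starved list, and 166 with at least 2 peaks, 98 for strong peaks. It was 150 in the overlap of both lists, and 79 with at least 2 peaks, 22 for strong peaks, 64 at a q of at most 0.05. Each alternative counts other peaks or overlaps; beyond that the cause was not tested. Lists of equal length were made for the starved list alone, since the serum list is the shorter.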

Other observations

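Pooled over scaffolds, the gaps between neighbouring peaks were shorter than on chromosomes 1 to 20 and X. The median gap between neighbouring serum peaks was 3426 bp on scaffolds and 4762 bp on chromosomes, although most long scaffolds had fewer peaks per Mb. Gaps under 1 kb made up 26.0 and 14.8%. For starved peaks the median gap was 1594 bp against 3920 bp, and gaps under 1 kb made up 43.0 and 21.0%. Short gaps thus made up a larger part of the gaps on scaffolds in both lists. No gap can exceed the length of its scaffold. The span was under 100 kb for 138 of the 183 scaffolds with serum peaks and 267 of the 318 with starved peaks. KL568156.1 alone held 324 of the 1586 serum peaks. The part of these limits in the shorter gaps was not tested.

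Some peaks began in the first 500 bp of their sequence. There were 11 such serum peaks, on 11 of 183 scaffolds, and 45 starved peaks, on 43 of 318. They made up 0.694 and 0.794% of scaffold peaks, against 0.000695 and 0.00149% of those on chromosomes 1 to 20 and X, which have only 21 starts. On these, 2 had such a serum peak and 6 such a starved peak. Of the 11 serum peaks 1 was strong and 4 were shared, where 11.0 and 55.7% of serum scaffold peaks and 1.22 and 15.7% of all serum peaks were. Of the 45 starved peaks 8 were strong and 6 were shared, where 12.6 and 14.5% of starved scaffold peaks and 13.0 and 11.0% of all starved peaks were. They include AABR07022335.1:1-627 and KL568245.1:1-436, among the tallest scaffold peaks of their lists.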
